A study of Mus musculus with 9 samples.

Results

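Of the 31167 genes in the expression table of cultured mouse kidney tubule cells, 10 were taken by symbol as targets of the hypoxia-inducible factors (HIF) that are not enzymes of glycolysis: Bnip3, Adm, Car9, Ankrd37, Ndrg1, Ddit4, P4ha1, P4ha2, Kdm3a and Bhlhe40. All 10 were found, each on 1 row, and 9 of them averaged 0.5 FPKM or more over all libraries, the minimum that left 13985 genes to test. Ankrd37 did not reach it, and it was tested only where no minimum was set.

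RNA was sequenced from primary renal tubular epithelial cells of C57BL/6 mouse kidney, in 3 groups of 3 libraries. Sham cells, by the study's account, received no treatment. H/R (hypoxia/reoxygenation) cells were kept for 6 h in medium without glucose at 1.0% oxygen and then for 18 h in complete medium under normal conditions, a culture model of ischemia and reperfusion. EGR1OV cells received an Egr1 overexpression plasmid with the EndoFectin Max reagent and are compared here with Sham cells, since no group with an empty plasmid was analysed here. By the legend of the study's RNA-seq figure the cells received either H/R or the plasmid. Its methods, however, describe transfection of such cells before H/R. The time from transfection to harvest in EGR1OV was not given in the sources used here. The study gives a CMV promoter for its plasmid in cultured cells, which is active in most cell types. Low oxygen and glucose withdrawal came together in H/R and cannot be told apart, and neither can plasmid delivery and Egr1 in EGR1OV. H/R cells were sampled at a single time, so that a gene can be shown to be raised 18 h after reoxygenation but not to have stayed raised since the end of hypoxia. The labels do not say whether the 3 libraries of a group came from separate mice or cultures, so the p-values measure the spread between these libraries only.

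HIF is a transcription factor made of an oxygen-labile alpha subunit (Hif1a or Epas1) and a stable partner, Arnt. With oxygen present, the prolyl hydroxylases Egln1, Egln2 and Egln3 modify the alpha subunit, which Vhl then marks for destruction, so that HIF protein is lost soon after oxygen returns. Its targets serve mitophagy, vessel tone, acid balance, growth control, collagen folding, chromatin and the circadian clock as well as glycolysis, and kidney tubules, which work close to the limit of their oxygen supply, are a classic site of the response.

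Depth, recovered from the steps in the values, ran from 16183617 to 18384022 reads. Egr1 averaged 6.40 FPKM in Sham and 7.88 in H/R, but 42.6 FPKM in EGR1OV, which fits the label of the plasmid group. Reads from the plasmid and from the cell's own gene cannot be told apart. Egr1 was also called higher in H/R against Sham, just past the 1.2-fold threshold used below (log2 change 0.26, adjusted p = 0.0348 by limma). The tubule genes Pax8 (13.1 FPKM in Sham), Cdh16 (24.3) and Krt8 (1014) were present, while the segment markers Slc34a1, Slc5a2, Umod and Slc12a3 lay below 0.1 FPKM in every group. The abundant RNA Gm23935 took 0.541% to 7.34% of the summed FPKM and was highest in Sham replicate 3 and in H/R replicates 2 and 3. Its part in the results was not tested. The same 3 members were called higher in H/R when the libraries were rescaled by median ratios or quantile-normalized.

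In H/R, 3 of the 10 genes rose against Sham and none fell by limma, with 3 lower at an unadjusted p under 0.05 and none called lower by voom on recovered reads. The risers were Bnip3, which places a mitophagy receptor on the outer mitochondrial membrane, and P4ha1 and P4ha2, the catalytic subunits of the prolyl 4-hydroxylase that lets collagen fold into a stable helix. Bhlhe40 lay slightly higher, below the fold threshold. The other tested members, Adm, Car9, Ndrg1, Ddit4 and Kdm3a, were level with Sham or below it without passing the test. A gene was called at a Benjamini-Hochberg adjusted p under 0.05 in limma's test on log2(FPKM + 1) and a change of at least 1.2-fold, which 1.6% of all tested genes passed upwards, 2.65% downwards and 4.25% in either direction. By the adjusted p alone 4 members passed, Bhlhe40 included, and 11.7% of all tested genes. Of the 594 genes called, 37.7% were higher in the deposited scaling, against 58.2% of those called with median-ratio scaling and 56.5% with quantile normalization. The median log2 change was 0.00 over the 9 tested members and −0.03 over all tested genes.

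Bnip3 (ENSMUSG00000078566, minus strand of chr7:138890836-138909519) stood at 3.49, 2.94 and 2.59 FPKM in the Sham libraries and at 6.96, 6.70 and 6.47 in H/R. Every H/R library was above every Sham library, with 6.47 FPKM as the lowest H/R and 3.49 as the highest Sham value. The means were 3.01 ± 0.452 (SD, n = 3) and 6.71 ± 0.242 FPKM (SD, n = 3), a ratio of 2.23. The log2 change was 0.95 (SE 0.128, 95% interval 0.66 to 1.24, adjusted p = 0.00277 by limma). Over the alternatives it ran from 0.87 to 1.16, with an adjusted p of at most 0.0136. Bnip3 was read from only 97 to 279 reads per library. An antisense gene, Gm45507, overlaps it in the annotation, and the strand setting of the counting was not given in the sources used here.

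P4ha1 (ENSMUSG00000019916, plus strand of chr10:59323296-59373304) had 43.4, 42.1 and 43.3 FPKM in Sham and 60.6, 60.4 and 57.9 in H/R. The groups were far apart compared with their spread, with means of 42.9 ± 0.705 (SD, n = 3) and 59.6 ± 1.55 FPKM (SD, n = 3). P4ha1 rose by 0.47 on the log2 scale (SE 0.0294, adjusted p = 9.04e-05 by limma), a ratio of 1.39. It had the smallest standard error of the 9 tested members and rested on 2865 to 4570 reads per library.

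P4ha2 (ENSMUSG00000018906, plus strand of chr11:54100095-54131665) was less abundant, at 8.76, 9.51 and 9.44 FPKM in Sham and 11.8, 11.5 and 11.2 in H/R. The groups did not overlap. The rise was the smallest of the called ones, 0.29 on the log2 scale (SE 0.0407, adjusted p = 0.00358 by limma, ratio 1.24), and lay just above the fold threshold of 0.26. Without Sham replicate 1, the lowest library, it was 0.25 with an adjusted p of 0.0128 and no longer reached the fold threshold. The third subunit gene, P4ha3, was at 0.601 FPKM in Sham and 0.615 in H/R (log2 change 0.01, adjusted p = 0.931 by limma). The beta subunit shared by these enzymes, P4hb, was at 257 and 263 FPKM (log2 change 0.03, adjusted p = 0.407 by limma).

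The other members did not pass in H/R. Bhlhe40 (ENSMUSG00000030103, chr6:108660629-108666925), a circadian repressor, was at 74.5, 76.1 and 76.9 FPKM in Sham and 82.4, 81.7 and 84.0 in H/R. The groups were apart, but the log2 change was only 0.12 (SE 0.0302, adjusted p = 0.0318 by limma), below the fold threshold. Its adjusted p rose above 0.05 with the replicate block (0.0693), without the variance trend (0.0748), with no filter (0.0663) and without any single Sham or H/R library (0.0631 to 0.0982).

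Adm (ENSMUSG00000030790, chr7:110627661-110629820), which encodes the vasodilator peptide adrenomedullin, was at 15.4, 14.7 and 17.0 FPKM in Sham and 14.2, 14.9 and 16.3 in H/R. The groups overlapped and the log2 change was −0.05 (95% interval −0.22 to 0.12, adjusted p = 0.729 by limma), 0.01 without Sham replicate 3. Ndrg1 (ENSMUSG00000005125, chr15:66929321-66969640), a stress-responsive gene linked to differentiation, was at 5.13, 4.72 and 5.20 FPKM in Sham and 5.09, 4.60 and 5.34 in H/R. Its groups also overlapped, with a log2 change of 0.00 (95% interval −0.13 to 0.12, adjusted p = 0.985 by limma). For both genes the upper end of the interval was below the fold threshold.

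Ddit4 (ENSMUSG00000020108, chr10:59949669-59951834), an inhibitor of the growth kinase complex mTORC1, was the most abundant member in Sham, at 97.7, 93.3 and 90.3 FPKM, and stood at 86.5, 77.8 and 79.8 in H/R. All H/R libraries were below all Sham libraries, with a log2 change of −0.20 (SE 0.0581, 95% interval −0.33 to −0.07, adjusted p = 0.0542 by limma). Kdm3a (ENSMUSG00000053470, chr6:71588972-71632990), a histone demethylase that itself needs oxygen, was at 7.42, 8.15 and 7.31 FPKM in Sham and 6.84, 6.57 and 6.86 in H/R. The groups were again apart, with a log2 change of −0.15 (SE 0.0482, adjusted p = 0.0751 by limma). Neither passed the test. Over the alternatives the adjusted p ran from 0.00403 to 0.152 for Ddit4 and from 0.0222 to 0.200 for Kdm3a, with changes below the fold threshold throughout.

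Car9 and Ankrd37, both known for steep induction by hypoxia, were near the limit of these libraries. Car9 (ENSMUSG00000028463, chr4:43506966-43513729), a carbonic anhydrase on the cell surface, was at 1.19, 0.672 and 1.13 FPKM in Sham and 0.456, 0.661 and 0.636 in H/R, on 16 to 45 reads per library. The log2 change was −0.33 (SE 0.125, adjusted p = 0.128 by limma), and the ratio of the means was 0.586. Over the alternatives the change ran from −0.71 to −0.255, with an adjusted p of at least 0.0535. The antisense gene Gm12454, which overlaps Car9, averaged 0.786 FPKM over the 9 libraries, so reads of both may be mixed if strand was ignored. Ankrd37 (ENSMUSG00000050914, chr8:45996902-46005707) was at 0.593, 0.373 and 0.236 FPKM in Sham and 0.442, 0.318 and 0.366 in H/R, on 6 to 16 reads. With no filter on low values its log2 change was −0.02 (95% interval −0.26 to 0.22, adjusted p = 1 by limma), on a scale that compresses changes at so low a level. It overlaps Ufsp2 on the opposite strand, which averaged 7.55 FPKM.

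**Figure D1:**
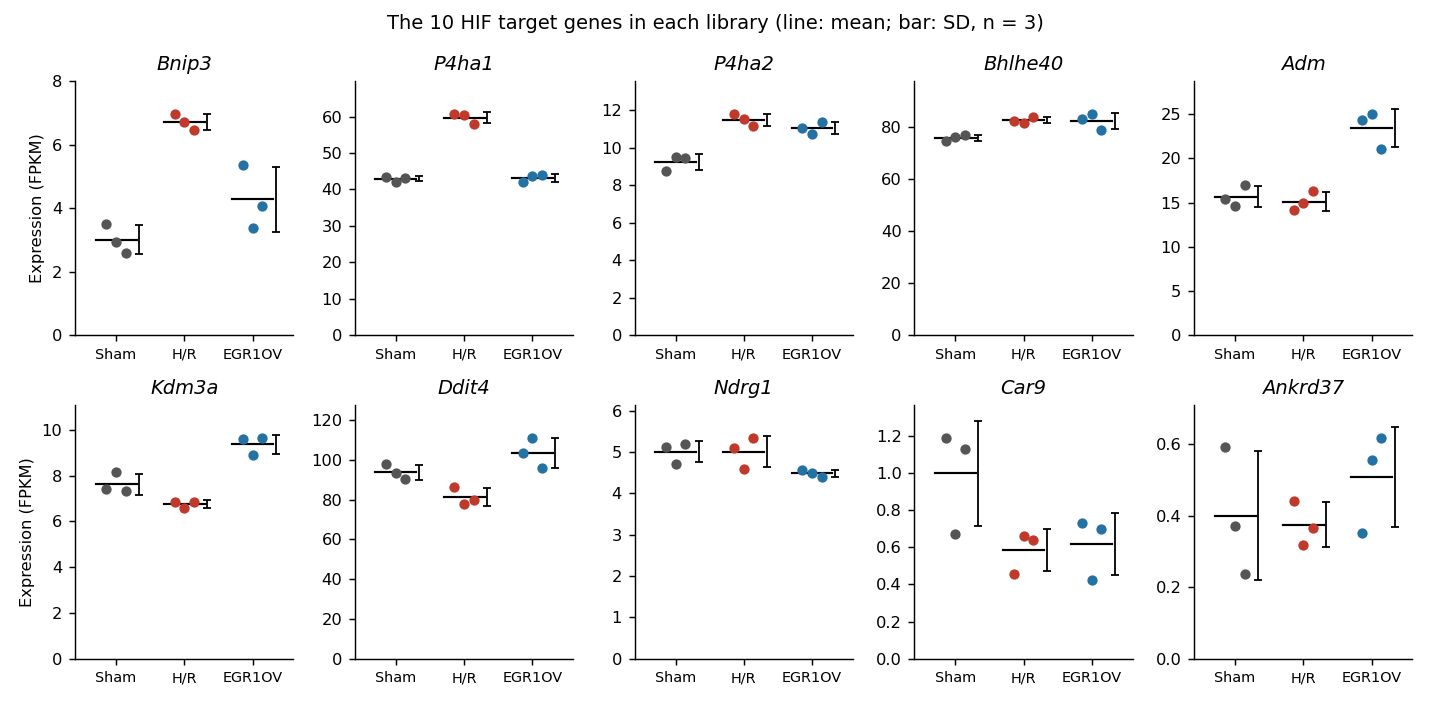
Expression in FPKM (vertical axes, from 0, a separate scale for each gene) of the 10 genes in each library, by group; points are libraries, horizontal lines are means and bars are the SD of 3 libraries. Bnip3 and P4ha1 stand above the Sham libraries in all 3 H/R libraries, P4ha2 in all H/R and all EGR1OV libraries, and Adm in all EGR1OV libraries.

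In 7 of the 10 genes the Sham and H/R libraries did not overlap, 4 of them higher in H/R and 3 lower. Among all tested genes 33.6% did not overlap, 11.8% higher and 21.8% lower. All 7 reached 0.1 in the exact two-sided permutation test, the smallest p that 3 against 3 allows, so that test cannot go below 0.05 here.

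The order of the 10 genes by level changed between Sham and H/R in 2 places. In Sham the order by mean FPKM was Ddit4 (93.8), Bhlhe40 (75.8), P4ha1 (42.9), Adm (15.7), P4ha2 (9.24), Kdm3a (7.62), Ndrg1 (5.01), Bnip3 (3.01), Car9 (0.997) and Ankrd37 (0.401), and no neighbours in it overlapped. In H/R, Bnip3 (6.71 FPKM) had passed Ndrg1 (5.01 FPKM) and overlapped with Kdm3a (6.76 FPKM), and Bhlhe40 (82.7 FPKM) had passed Ddit4 (81.4 FPKM) as the highest mean, although their libraries overlapped.

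HIF binds DNA at the hypoxia response element, whose core was searched as ACGTG or GCGTG on both strands in the 250 bases before the annotated start of each gene. RefSeq windows (GRCm38.p6) were found for 8 of the 10 genes, not for Ndrg1 and Bhlhe40. The 3 risers are shown with Adm as a member that did not rise in H/R, 5′ to 3′ along the gene's strand, with every core match in capitals (CACGT and CACGC are the cores read on the other strand).
Bnip3, chr7:138909507-138909756, minus strand: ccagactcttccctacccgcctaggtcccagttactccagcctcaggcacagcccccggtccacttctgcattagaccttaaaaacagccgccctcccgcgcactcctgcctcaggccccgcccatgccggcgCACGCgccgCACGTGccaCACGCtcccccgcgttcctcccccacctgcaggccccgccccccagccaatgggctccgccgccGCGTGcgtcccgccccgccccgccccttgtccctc
P4ha1, chr10:59323046-59323295, plus strand: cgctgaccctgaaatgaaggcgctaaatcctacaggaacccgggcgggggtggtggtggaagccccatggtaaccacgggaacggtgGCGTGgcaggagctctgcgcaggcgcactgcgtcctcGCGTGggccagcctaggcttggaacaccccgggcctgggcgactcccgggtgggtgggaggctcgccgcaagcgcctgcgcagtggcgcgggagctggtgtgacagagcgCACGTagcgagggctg
P4ha2, chr11:54100674-54100923, plus strand: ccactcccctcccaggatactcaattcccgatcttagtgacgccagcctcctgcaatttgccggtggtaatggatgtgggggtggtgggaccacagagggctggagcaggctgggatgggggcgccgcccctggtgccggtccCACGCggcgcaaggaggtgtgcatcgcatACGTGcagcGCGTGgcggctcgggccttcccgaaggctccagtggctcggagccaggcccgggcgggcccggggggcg
Adm, chr7:110627407-110627656, plus strand: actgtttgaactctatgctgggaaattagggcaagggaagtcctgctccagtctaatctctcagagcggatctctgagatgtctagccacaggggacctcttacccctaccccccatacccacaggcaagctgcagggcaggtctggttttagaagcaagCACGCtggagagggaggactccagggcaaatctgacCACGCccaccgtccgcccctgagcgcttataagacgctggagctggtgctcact

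Bnip3 held 5 matches in 4 runs, since its palindrome CACGTG counts once on each strand, and 6.02% of all windows hold that palindrome. All but 1 of the 5 lay from 117 to 99 bases before the start. P4ha1 and P4ha2 held 3 matches each. Of all 32851 windows in the table, 6.58% held 3 or more matches and 38.6% held at least 1. The members that did not rise held matches too: Ankrd37 held 4, Adm and Ddit4 held 2 each, and Car9 and Kdm3a held 1 each, for Kdm3a in only 1 of its 3 windows. The RefSeq start of P4ha2 lies 829 bases from the gene start in the expression table, so its window falls in an intron of a longer annotated transcript, and the Adm window lies in an intron of the antisense gene Gm28863. The start used for Ankrd37 lies 5857 bases from that in the table. A match is a string of 5 letters and does not show that HIF binds there.

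**Figure D2:**
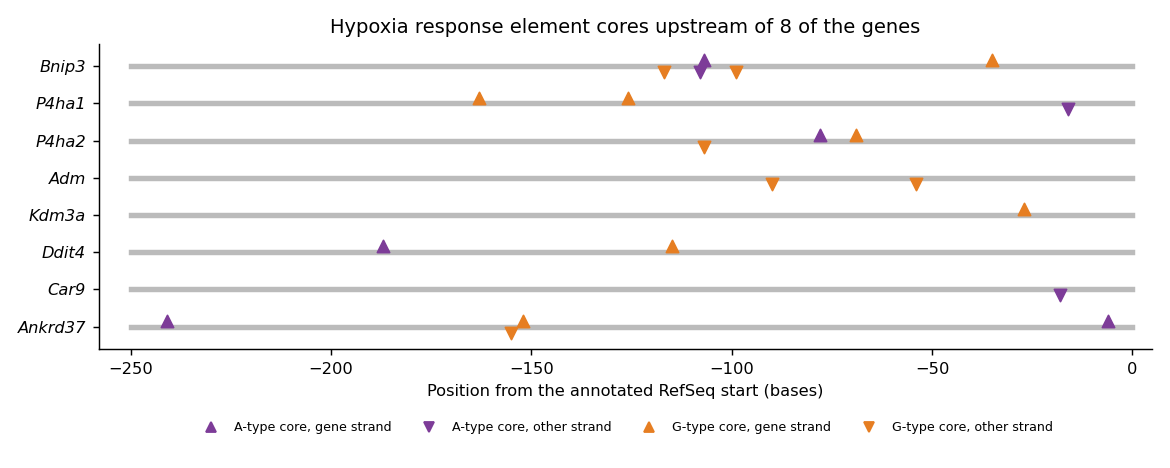
Positions of the core matches in the 250 bases before the annotated start (horizontal axis, bases) of the 8 genes with a window; triangles pointing up are on the gene's strand and triangles pointing down on the other, and colour gives the first letter of the core. Bnip3 shows a cluster 117 to 99 bases before its start, and each of the 8 genes has at least 1 match.

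The rest of the HIF system was described from lists of genes. Of 10 tested HIF subunits and oxygen sensors, none passed in H/R by limma or by voom, and 1 had an unadjusted p under 0.05. This was Egln1, the main oxygen-sensing hydroxylase and itself a HIF target, at 19.0 FPKM in Sham and 22.1 in H/R (log2 change 0.21, adjusted p = 0.0324 by limma). Hif1a was at 20.8 and 20.2 FPKM, and Epas1 at 1.44 and 1.45 FPKM, so their mRNA levels were close in both groups; the protein was not measured.

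Of 19 tested glycolytic HIF targets, 9 rose and none fell in H/R, with a median log2 change of 0.26. The largest changes were 1.18 in Slc16a3, which exports lactate, 0.99 in Pfkl, a phosphofructokinase subunit, 0.93 in Pdk1, which holds pyruvate back from mitochondria, and 0.63 in Ldha, which makes lactate. Of 39 tested other HIF targets outside glycolysis, 9 rose and none fell by limma (3 lower at an unadjusted p under 0.05, 1 called lower by voom), with a median of 0.13. They were led by Fam162a, from 73.5 ± 5.86 to 129 ± 7.86 FPKM (SD, n = 3 each, log2 change 0.80, adjusted p = 0.000195 by limma), and by Angptl4 (0.53), Igfbp3 (0.47) and the vessel growth factor Vegfa (0.41). Over the alternatives, the number of glycolytic targets called higher ran from 8 to 12 and that of the others from 8 to 15.

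The genes whose pattern over the 9 libraries was most like that of each riser, 1 for each, were glycolytic. Likeness was the root mean square difference in log2(FPKM + 1) after centring each gene on its Sham mean, over 7588 genes of at least 5 FPKM. It picked Pfkl for Bnip3 (0.18), Tpi1 for P4ha1 (0.04) and Gpi1 for P4ha2 (0.03). Tpi1, for example, went from 103 FPKM in Sham to 141 in H/R and 102 in EGR1OV. Genes outside glycolysis followed closely, with Has2 second for Bnip3 (0.19) and Tm4sf1 second for P4ha2 (0.05), both chosen after their values were seen. These values are a description over 9 libraries of 3 groups.

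**Figure D3:**
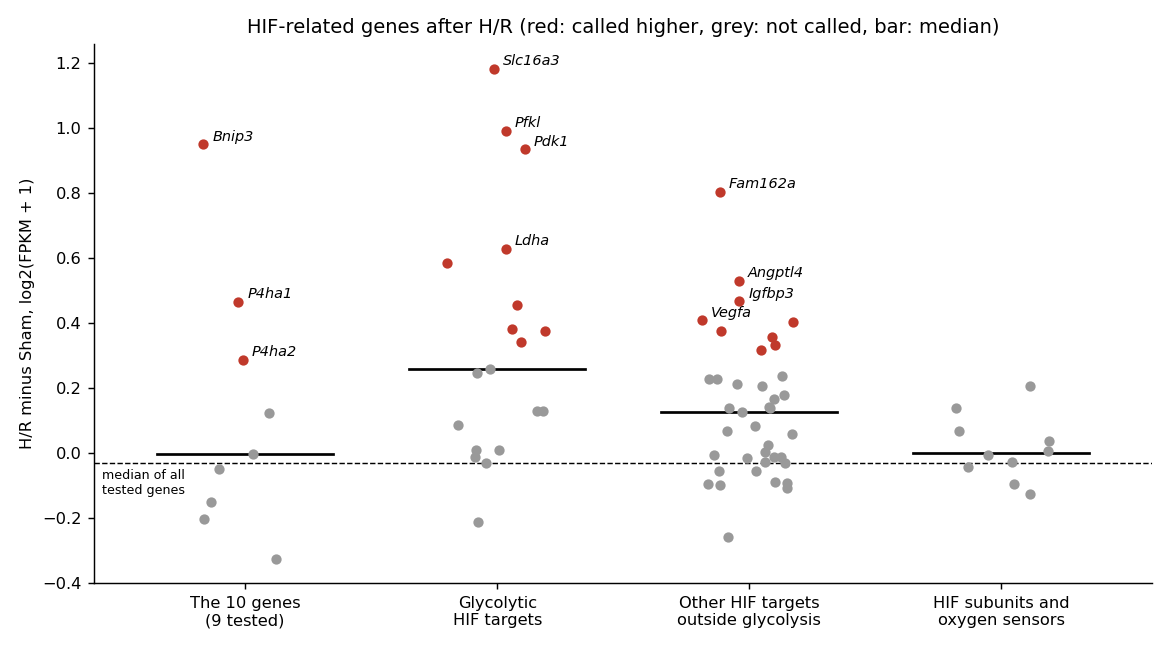
Difference in log2(FPKM + 1) between H/R and Sham (vertical axis) for each tested gene of 4 lists; red points were called higher, grey points were not called, solid bars are list medians and the dashed line is the median of all tested genes (−0.03). The 9 tested members range from −0.33 in Car9 to 0.95 in Bnip3, and the HIF subunits and oxygen sensors hold no called gene.

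Close partners of the members were also measured in H/R. Bnip3l, the paralog of Bnip3 and also a mitophagy receptor, was at 31.4 ± 0.326 FPKM in Sham and 36.5 ± 0.858 in H/R (SD, n = 3 each), a log2 change of 0.21 that stayed below the fold threshold (adjusted p = 0.00245 by limma). None of the 8 tested mitophagy partners was called by limma or by voom. By limma's adjusted p alone 4 passed, 2 higher and 2 lower, against 11.7% of all tested genes. In collagen maturation 2 of 16 tested genes rose, Plod2, a lysyl hydroxylase (log2 change 0.36, from 63.9 to 82.1 FPKM, adjusted p = 0.000159 by limma), and Lox, which cross-links collagen (log2 change 0.38, from 129 to 168 FPKM, adjusted p = 0.000493 by limma). None fell, and the list median was 0.02. Plod2 and Lox also belong to the list of other HIF targets and are counted among its risers.

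Around Ddit4, 1 of 11 tested mTORC1 brake genes fell, the sestrin Sesn2 (log2 change −0.30, from 25.96 to 20.99 FPKM, adjusted p = 0.00209 by limma). Ddit4 is known to respond to the integrated stress response and to glucocorticoids as well as to HIF. The part of each in the level of Ddit4 here was not tested. In the integrated stress response 5 of 10 tested genes fell and none rose, with a median log2 change of −0.28. They included Trib3 (−0.56), Atf3 (−0.42), Ddit3 (−0.32) and Chac1 (−0.31), with Sesn2 held by this list as well. Over the alternatives 4 to 8 of the list were called lower. Of 6 tested glucocorticoid targets none was called by limma and 1 was lower by voom, with a median of −0.16. By limma's adjusted p alone 2 were lower, and 4 had an unadjusted p under 0.05.

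Among the clock genes that work with Bhlhe40, 1 of 14 tested rose, the repressor Cry1 (log2 change 0.38, from 2.83 to 3.98 FPKM), and 2 fell, Ciart (−0.31) and Nr1d2 (−0.30). By voom 2 rose and 7 fell. Its paralog Bhlhe41 was at 3.41 and 3.83 FPKM (log2 change 0.13, adjusted p = 0.298 by limma). None of 17 tested Jumonji demethylases passed by limma or by voom, 1 had an unadjusted p under 0.05, and the paralogs of Kdm3a, Kdm3b and Jmjd1c, had log2 changes of −0.11 and 0.08. Of 4 tested carbonic anhydrases and acid exporters, Car2 alone rose (0.28), from 26.8 to 32.8 FPKM. Ndrg2 (0.25, adjusted p = 0.0244 by limma) and Ndrg3 (−0.18, adjusted p = 0.0855 by limma) were not called by limma, while voom called 1 gene higher and 1 lower among the 4 of the Ndrg family and Sgk1. The adrenomedullin receptor genes Calcrl, Ramp2 and Ramp3 were each below 0.5 FPKM and were not tested.

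Markers of cell types were measured beside these results. The summed level of the 17 tubule markers in the table was 1868 to 1952 FPKM in H/R and 2013 to 2051 in Sham, with 1 of 11 tested called higher and none lower. In H/R the summed level of the 13 leukocyte markers was 138 to 148 FPKM, against 161 to 168 in Sham, with 2 of 11 tested called lower. Endothelial marker sums were 20.3 to 21.05 FPKM in H/R and 19.98 to 20.7 in Sham. The 10 fibroblast markers summed to 2657 to 2856 FPKM in H/R and 2912 to 3026 in Sham, most of it Acta2, and 3 of 7 tested were called higher. The fibroblast genes Dcn and Lum were below 0.1 FPKM in every group. In bulk RNA, fewer cells of a type cannot be told apart from less RNA per cell, and the part of these shifts in the changes of the members was not tested.

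With Egr1 overexpressed, 2 of the 10 genes were called higher against Sham, Adm and Bnip3, at a threshold of 1.3-fold. None was called lower by limma or by voom, and 2 were lower at an unadjusted p under 0.05. Of all tested genes 16.4% were called in this comparison, 9.87% higher and 6.51% lower. The share of these calls that were higher was 60.3% as deposited, 54.9% with median-ratio scaling and 45.9% with quantile normalization, so the balance turned with the scaling. The median log2 change was 0.14 over the 9 tested members and 0.02 over all tested genes. The libraries of 5 of the 10 genes did not overlap between EGR1OV and Sham, against 55.7% of all tested genes.

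Adm was at 24.3, 25.0 and 21.03 FPKM in the EGR1OV libraries, all above the highest Sham library of 17.0. The means were 23.5 ± 2.13 and 15.7 ± 1.19 FPKM (SD, n = 3 each), a log2 change of 0.55 (SE 0.0764, adjusted p = 0.000309 by limma) that ran from 0.46 to 0.62 over the alternatives. Bnip3 was at 5.37, 3.38 and 4.07 FPKM in EGR1OV, and its lowest library lay below the highest Sham library. The log2 change of 0.38 (SE 0.128, adjusted p = 0.0344 by limma) was only just past the fold threshold, and without EGR1OV replicate 1 it was 0.24 with an adjusted p of 0.0897. The call was also lost without Sham replicate 2 (adjusted p = 0.0822), Sham replicate 3 (0.113) or EGR1OV replicate 3 (0.0628), and after either rescaling. Over the alternatives the adjusted p ran from 0.00733 to 0.113.

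By the adjusted p alone 5 members passed in EGR1OV, as did 45.9% of all tested genes. P4ha2, Kdm3a and Bhlhe40 were the ones that stayed below the fold threshold. P4ha2 was at 11.1, 10.7 and 11.4 FPKM (log2 change 0.24, adjusted p = 0.00122 by limma), Kdm3a at 9.58, 8.90 and 9.65 FPKM (0.27, adjusted p = 0.00159 by limma) and Bhlhe40 at 83.2, 85.0 and 79.0 FPKM (0.12, adjusted p = 0.0106 by limma). In all of these the EGR1OV libraries lay above the Sham libraries. With quantile normalization the changes shrank to 0.14 in P4ha2 (adjusted p = 0.0210 by limma), 0.16 in Kdm3a (adjusted p = 0.0197 by limma) and 0.06 in Bhlhe40, which then no longer passed (adjusted p = 0.140 by limma).

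P4ha1, which rose in H/R, was at 41.9, 43.6 and 44.0 FPKM in EGR1OV and overlapped with the Sham libraries (log2 change 0.01, 95% interval −0.06 to 0.07, adjusted p = 0.842 by limma). Its sign turned with median-ratio scaling (−0.02) and with quantile normalization (−0.06). Ddit4 was at 103, 111 and 95.7 FPKM (0.14, adjusted p = 0.0834 by limma), with 1 library inside the Sham range. Ndrg1 was at 4.57, 4.50 and 4.40 FPKM, below every Sham library (−0.13, adjusted p = 0.0818 by limma). With median-ratio scaling it was −0.16 (adjusted p = 0.0431 by limma) and with quantile normalization −0.21 (adjusted p = 0.00926 by limma), both below the fold threshold.

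Car9 was at 0.732, 0.425 and 0.696 FPKM in EGR1OV (log2 change −0.30, adjusted p = 0.0802 by limma) and overlapped with Sham. Without Sham replicate 2, the library with the lowest Sham value, it was called lower (−0.42, adjusted p = 0.0179). Ankrd37 was at 0.352, 0.557 and 0.618 FPKM.

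The 2 treated groups were then compared directly, to test whether their levels of the members differed. Against H/R, EGR1OV cells had more Adm and Kdm3a and less Bnip3 and P4ha1, while 18.9% of all tested genes were called, 11.9% higher and 6.94% lower. Here too the balance turned, from 63.2% of calls higher as deposited to 51.0% with median-ratio scaling and 42.5% with quantile normalization. Adm differed by 0.60 (SE 0.0764, adjusted p = 0.000158 by limma) and Kdm3a by 0.42 (SE 0.0482, adjusted p = 8.30e-05 by limma). The Kdm3a difference was 0.36 with median-ratio scaling and 0.29 with quantile normalization, under the 1.3-fold threshold of 0.38 both times. P4ha1 was lower in EGR1OV by −0.46 (SE 0.0294, adjusted p = 1.62e-06 by limma) and Bnip3 by −0.57 (SE 0.128, adjusted p = 0.00488 by limma). The libraries of 6 of the 10 genes did not overlap, against 58.6% of all tested genes.

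Ddit4 had the next largest difference between the treated groups, 0.34 (SE 0.0581, adjusted p = 0.000987 by limma), below the fold threshold. Without H/R replicate 1 it was 0.38 and without EGR1OV replicate 3 it was 0.39, and it was then called. By the adjusted p alone it was among 5 members that passed, and 51% of all tested genes did. For P4ha2 (−0.05, 95% interval −0.14 to 0.04) and Bhlhe40 (−0.01, 95% interval −0.07 to 0.06) the 2 treated groups were not told apart in the deposited scaling. P4ha2 was at −0.12 with median-ratio scaling (adjusted p = 0.0444 by limma) and −0.17 with quantile normalization (adjusted p = 0.00719 by limma), and Bhlhe40 at −0.08 with each (adjusted p = 0.0558 and 0.0660 by limma). Ndrg1 was at −0.13 (adjusted p = 0.0803 by limma) and reached −0.25 with quantile normalization (adjusted p = 0.00381 by limma). All of these were below the fold threshold.

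**Figure D4:**
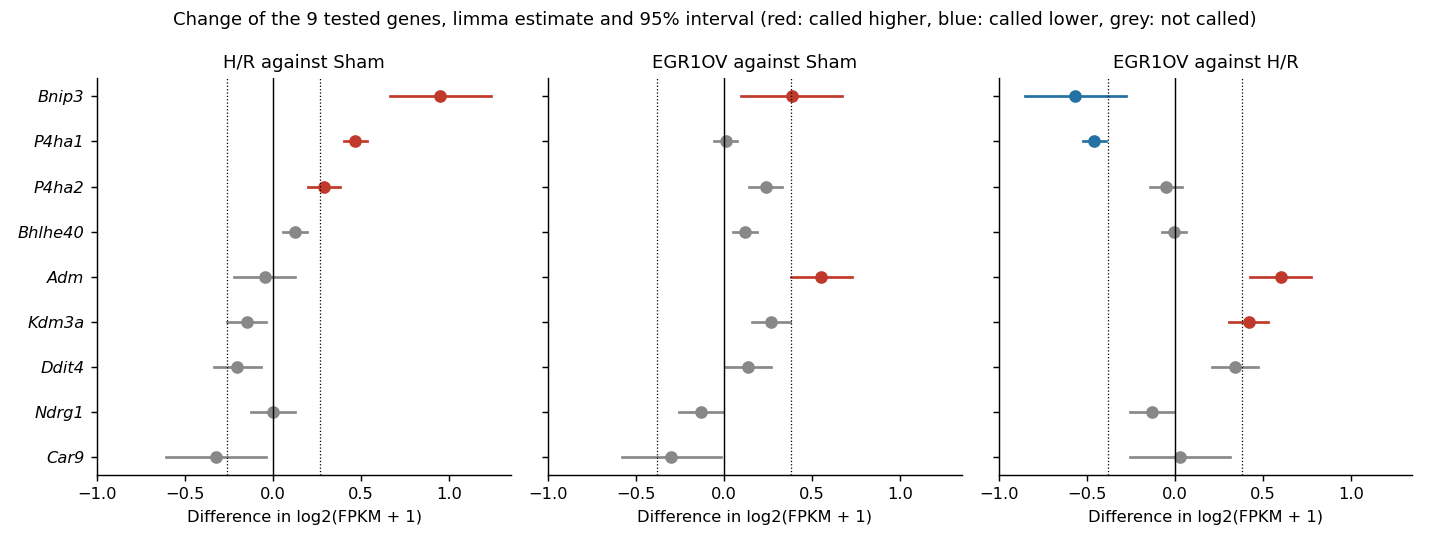
Difference in log2(FPKM + 1) (horizontal axis) of the 9 tested genes in the 3 comparisons, as the limma estimate with its 95% interval; red was called higher, blue lower and grey not called, and dotted lines mark the fold threshold. Bnip3, P4ha1 and P4ha2 are red for H/R against Sham, and P4ha1 lies at 0.01 for EGR1OV against Sham.

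The lists around the members were also counted in EGR1OV. Against Sham, 16.4% of all tested genes were called, 9.87% higher and 6.51% lower. Of the 19 glycolytic HIF targets 3 rose and none fell against Sham, with a median log2 change of 0.23, and of the 39 other HIF targets 5 rose and 1 fell, with a median of −0.02. Vegfa (0.60) and Igfbp3 (0.84) were among the risers, and Fam162a was at 67.0 FPKM against 73.5 in Sham (adjusted p = 0.117 by limma). Over the alternatives these counts ran from 2 to 11 higher for the glycolytic list, and from 3 to 11 higher and 1 to 11 lower for the other list, with the highest counts reached where no fold threshold was set. Epas1 fell from 1.44 ± 0.0504 to 0.750 ± 0.255 FPKM (SD, n = 3 each, log2 change −0.49, adjusted p = 0.00261 by limma), while Hif1a was at 24.0 FPKM (0.19, adjusted p = 0.0561 by limma).

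In collagen maturation 3 genes rose and 1 fell, with Loxl3 (log2 change 1.01) and Plod3 (0.73) leading. The gene that fell is also the 1 that fell among the other HIF targets. Plod2 at 55.9 FPKM was not called (−0.19, adjusted p = 0.000289 by limma). Among mitophagy partners the autophagy receptor Sqstm1 rose from 297 to 557 FPKM (0.91) and Map1lc3a fell (−0.48). Bnip3l was at 28.0 FPKM (−0.16, adjusted p = 0.00145 by limma), below the fold threshold. Of the adrenomedullin receptor genes Ramp1 fell from 1.90 to 0.964 FPKM (−0.56, adjusted p = 6.07e-05 by limma).

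Car13 (log2 change 1.60) and Car2 (0.39) rose among the carbonic anhydrases, and Ndrg2 rose from 3.79 to 7.31 FPKM (0.79, adjusted p = 3.98e-06 by limma). Sesn3 (0.83) rose among the mTORC1 brake genes. In the integrated stress response 4 of 10 tested genes rose and none fell, including Ddit3 (1.48), Atf3 (1.22) and Trib3 (0.49), each of which had fallen in H/R. None of the Jumonji demethylases passed against Sham by limma or by voom with the fold threshold, and by the adjusted p alone in limma 11 of the 17 were higher and 1 lower, where 26.1% of all tested genes were higher and 19.8% lower.

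Cell type markers were also measured in EGR1OV. The leukocyte sum was 47.4 to 55.6 FPKM, against 161 to 168 in Sham, and 9 of 11 tested leukocyte markers were called lower and 1 higher, with Itgam below 0.1 FPKM. The tubule sum was 1313 to 1422 FPKM, against 2013 to 2051, with 5 of 11 lower and 1 higher, and the fibroblast sum, mostly Acta2, was 1147 to 1217 FPKM against 2912 to 3026. The endothelial sum was 16.3 to 16.6 FPKM, against 19.98 to 20.7. The part of these shifts in the changes of Adm, Bnip3 and the other members was not tested.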

How the data were processed

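RNA-seq was analysed from 9 libraries (3 each of Sham, H/R and EGR1OV, grouped by the sample labels). The authors deposited a single FPKM table (fragment counts divided by exon length and library size) with a column per library. The submitters' processing notes name mm9, Bowtie2 2.2.3, HISAT2 2.1.0 and TopHat2 without roles, but 94.6% of gene positions equal GENCODE M21 (GRCm38), so coordinates are GRCm38. The counter and its strand setting were not given in the sources used here. Reads were recovered from FPKM steps and exon lengths (94.0% of values of 1 to 1000 reads whole within 0.02).

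Tests were run on the log2(FPKM + 1) scale, where changes of low genes are understated, with limma 3.58.1 (R 4.3.3, lmFit, eBayes with trend) on all 9 libraries, two-sided, adjusted by Benjamini-Hochberg over 13985 genes. Calls needed an adjusted p under 0.05 and 1.2-fold (H/R against Sham) or 1.3-fold (the others), the study's thresholds against Sham. The code was tested on simulated data. The members and the 17 lists were chosen with earlier results of these data known. Besides the members, up to 4 called genes a list were named, by size in H/R and then in EGR1OV, plus close partners, HIF subunits and sensors, Egr1, the nearest-pattern genes and markers for the label check. 1 gene that this rule picks is not reported here. The 19 alternatives covered pseudocount, filters, scaling, replicate block, variance model, samples, fold threshold and left-out libraries, and voom on recovered reads, added after the data were seen.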

Additional observations from a re-analysis of the deposited data

How the results depend on the processing

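In H/R against Sham 2 to 4 members were called over the alternatives, with leave-one-out values of 2 to 3. Bnip3 and P4ha1 passed under every alternative that tested them, and P4ha2 under all except the loss of Sham replicate 1. A mean of at least 5 FPKM removed Bnip3, Car9, Ndrg1 and Ankrd37 from the test. In EGR1OV against Sham the count of members called was 1 with no filter, with a mean of at least 5 FPKM, after median-ratio scaling, after quantile normalization and with only the 2 groups compared, 5 with no fold threshold, and 1 to 2 when single libraries were left out, against 2 as reported. It was 3 to 5 in EGR1OV against H/R, with leave-one-out values of 4 to 5.

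Changes of sign were all near 0. Adm in H/R ran from −0.10 to 0.0071 when single libraries were left out. Ndrg1 in H/R was 0.032 with median-ratio scaling, 0.035 with quantile normalization and −0.042 to 0.048 with libraries left out. P4ha1 in EGR1OV was −0.021, −0.056 and −0.0052 to 0.029 under the same changes. Between EGR1OV and H/R, Car9 was −0.0031 with quantile normalization and −0.033 to 0.12 with libraries left out, and Bhlhe40 was −0.029 to 0.023 with libraries left out. The cause of the other changes of call was not tested.

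Over all genes the counts for the 3 comparisons, 594, 2291 and 2641, became 372, 1315 and 1520 with a mean of at least 5 FPKM, where fewer genes were tested, and 1635, 6417 and 7135 with no fold threshold. Voom on recovered reads gave 995, 3010 and 3532. They were 449 to 579, 2238 to 2373 and 2583 to 2703 with libraries left out.

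Deviations of same-numbered replicates from their group means had correlations of −0.20 to 0.26, with 2 of 9 pairs over 0.1. Such correlations over 3 libraries a group cannot show whether the numbers pair the samples. With the replicate block 3, 2 and 4 members were called in the 3 comparisons, and 516, 2309 and 2654 of all genes. Precision is limited by read number for Car9 and Ankrd37.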
